A study of Mus musculus with 9 samples.

Results

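Conventional dendritic cell genes were examined in monocytes from the mouse spleen. The 10 genes were Flt3, Zbtb46, Xcr1, Clec9a, Clec10a, Cd209a, Itgax, Batf3, Dpp4 and Itgae. They were chosen by symbol, each symbol had 1 row, and they make up 10 of the 46072 genes in the deposited tables, of which 26108 had a count above 0 in at least 1 library. All 10 were detected in every library and received an adjusted p in every contrast. The mice were female C57BL/6, with 3 mice in each of 3 groups and 1 RNA library per mouse. The Con group received water by gavage over 6 days. The Van group received the antibiotic vancomycin in place of water, at 2 mg per mouse per day. VanLip mice received the same vancomycin and also L654, a bacterial lipid that is a ligand of the receptor TLR2. It was given by the retro-orbital route on days 7, 9 and 11. Control mice of the L654 experiments were injected with PBS, but whether the sequenced Con and Van mice were is not stated. Rest after gavage is given as 6 to 8 days in the labels, and as 8 days in the description of the sequenced mice, which counts the L654 days from the start of rest. The monocytes were left after magnetic removal of cells that carry CD3e, CD45R, CD117, Ly-6G, NK1.1 or Siglec F, and no step against CD11c, the protein of Itgax, is named in the methods. P-values measure the spread between these mice.

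Dendritic cells take up antigen and present it to T cells. Conventional dendritic cells arise from marrow precursors under FLT3 ligand and fall into the cDC1 type, which depends on the transcription factors IRF8 and BATF3 and presents antigen to CD8 T cells, and the cDC2 type, which depends on IRF4 and presents mainly to CD4 T cells. Monocytes can also take on dendritic cell features in tissues, and several of the genes below, among them Itgax, Cd209a, Clec10a and Dpp4, are known outside conventional dendritic cells as well.

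Libraries of Con and Van had total expected counts of 43070361 to 61383806, and those of VanLip 170503470 to 184720704. The commonest low count was 1.33 in Con and Van and 2.00 in VanLip, the sizes that reads of 100 and 150 bases would give if counts were scaled to reads of 75 bases, a length assumed here. The methods state 100 bases for all libraries, so the read length of VanLip was inferred and not settled. Depth went with the VanLip group, and its effect on a contrast with VanLip cannot be told apart from that of L654. The same holds for the injections themselves, if Con and Van mice had none. The labelled cell type was checked by its markers in FPKM (read fragments per kilobase of transcript, scaled by how many mapped). Csf1r, the receptor for the monocyte growth factor CSF1, had 528 to 643 FPKM, Ly6c2 of classical monocytes 268 to 451 and Nr4a1, a transcription factor needed by nonclassical monocytes, 1006 to 1485. Cd79a of B cells had 0.653 to 1.62 FPKM and Cd3e of T cells 0.378 to 0.716. Ly6g of neutrophils was at 0 in every library, although the 10 neutrophil markers that include it summed to 13.7 to 36.8 FPKM. C1qa, listed below as a red pulp macrophage marker, had 206 to 340 FPKM. The methods state an incomplete purity, so cells of other types may be in the isolate.

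The 10 genes spanned a wide range of levels in the Con libraries. Itgax, which encodes the integrin CD11c, was the highest at 75.2 ± 6.58 FPKM (SD, n = 3) and made up 47.5% of the summed level of the 10. Cd209a followed at 25.1 ± 7.23 FPKM, Batf3 at 16.7 ± 0.246, Dpp4 at 14.4 ± 2.03, Clec10a at 13.4 ± 3.30 and Flt3 at 8.14 ± 0.819 (SD, n = 3 each). The other 4 genes had the lowest levels. Clec9a had 2.62 ± 0.401 FPKM, Zbtb46 1.51 ± 0.173, Xcr1 0.618 ± 0.0758 and Itgae 0.514 ± 0.155 (SD, n = 3 each). Among the genes detected, Itgax stood at percentile 96.4, Batf3 at 83.3, Flt3 at 73.0, Clec9a at 58.3, Zbtb46 at 52.6, Xcr1 at 43.9 and Itgae at 42.1 by mean FPKM in Con. Neighbours in this order were separated in every library of Con except Dpp4 from Clec10a and Xcr1 from Itgae, whose libraries overlapped. In Van, Itgax, Cd209a and Batf3 kept the first 3 places. Batf3 overlapped Clec10a, Clec10a overlapped Dpp4, Dpp4 overlapped Flt3 and Clec9a overlapped Zbtb46, while Flt3 lay above Clec9a in every library. Itgae lay above Xcr1 in each Van library. In VanLip the libraries of Batf3, at 17.9 ± 3.42 FPKM, and Cd209a, at 15.4 ± 3.77 FPKM (SD, n = 3 each), overlapped, and those of Itgae and Xcr1 overlapped again.

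**Figure D1:**
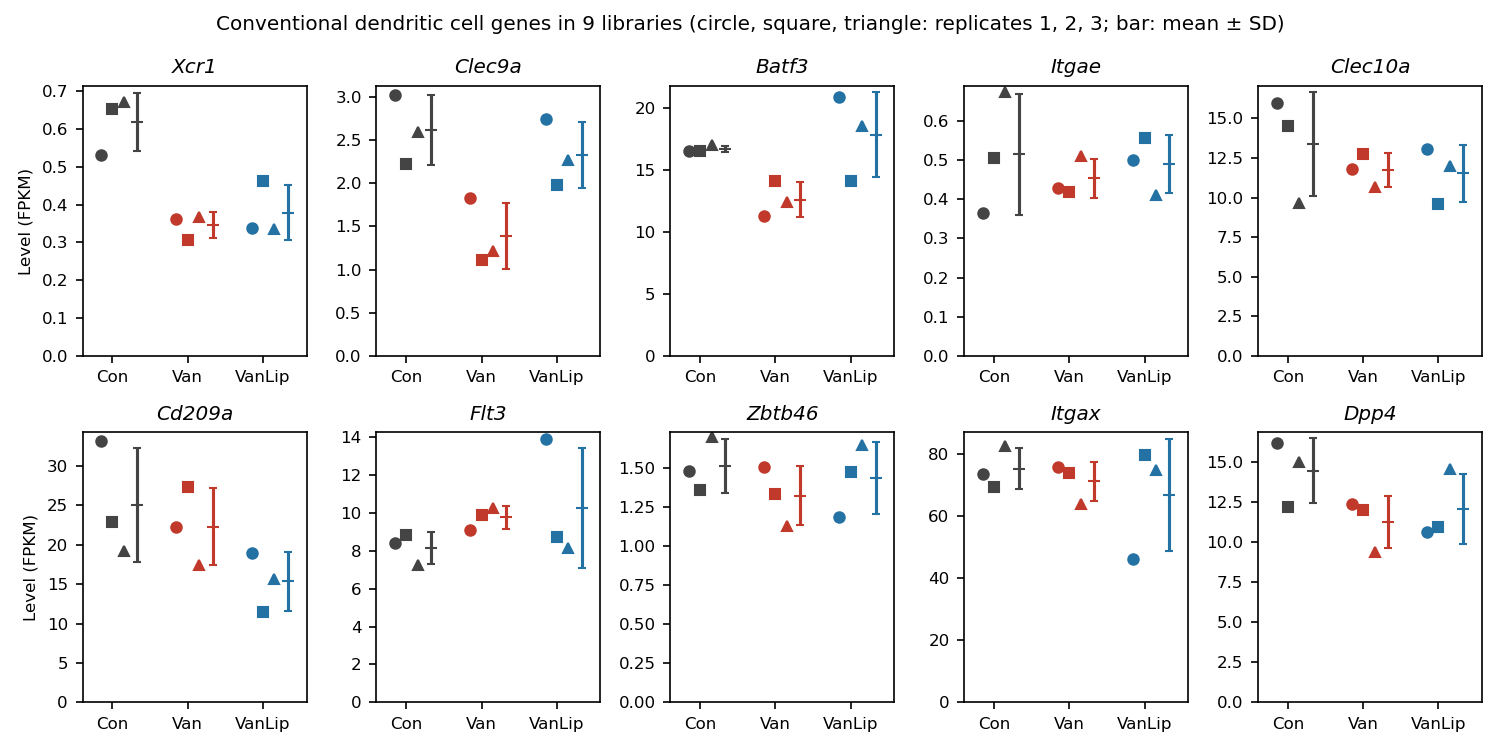
Level in FPKM (linear axes from 0) of each of the 10 genes in the 9 libraries, by group. Symbols mark replicates and bars the mean ± SD of 3 mice. Clec9a, Xcr1 and Batf3 lie lower in the 3 Van libraries than in the 3 Con libraries without overlap, and Itgax and Flt3 have 1 VanLip library apart from the other two.

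After vancomycin, 2 of the 10 genes fell, and the test called 0 higher. Clec9a fell by 54.0% and Xcr1 fell by 44.4%. Both encode receptors of cDC1. Over all genes, DESeq2 with Benjamini-Hochberg adjustment called 803 of 18526 for Van against Con, 4.33%, with 2.06% called lower and 2.27% higher. At an unadjusted p under 0.05 there were 3 of the 10, the third being Batf3. Among the 25420 genes with a DESeq2 p-value, 2822 were under 0.05 in this contrast. The fitted log2 fold change was below 0 for 9 genes and above 0 for Flt3, with a median of -0.19 against -0.01 over all genes. Normalised counts did not overlap between Van and Con in 4 of the 10, where 21.8% of the genes with a mean of at least 10 did not overlap.

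VanLip and Con differed in 2 of the 10 genes, Xcr1 and the lectin gene Cd209a, both lower in VanLip. Over all genes, 6.23% of 17546 were called in this contrast by DESeq2, with 3.47% lower and 2.76% higher. The median log2 fold change of the 10 was -0.21 against 0.01 over all genes, with 8 below 0 and 2, Flt3 and Batf3, above. Normalised counts did not overlap in 1 gene, Xcr1, against 23.4% of genes with a mean of at least 10. At an unadjusted p under 0.05 there were 3, the third being Clec9a, against 3315 of 25420 genes with a DESeq2 p-value.

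VanLip and Van also differed in 2 of the 10, Clec9a and Batf3, both higher in VanLip. DESeq2 called 9.2% of 19017 genes in this contrast, with 4.26% higher and 4.94% lower. The median was 0.08 against 0.01, with 7 above 0 and 3, Clec10a, Cd209a and Itgax, below. Only Clec9a had normalised counts without overlap, against 26.6% of genes with a mean of at least 10. At an unadjusted p under 0.05 there were 3, the third being Cd209a, against 3930 of 25420 genes with a DESeq2 p-value. The 3 contrasts share libraries in pairs, so their values are not independent of each other.

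**Figure D2:**
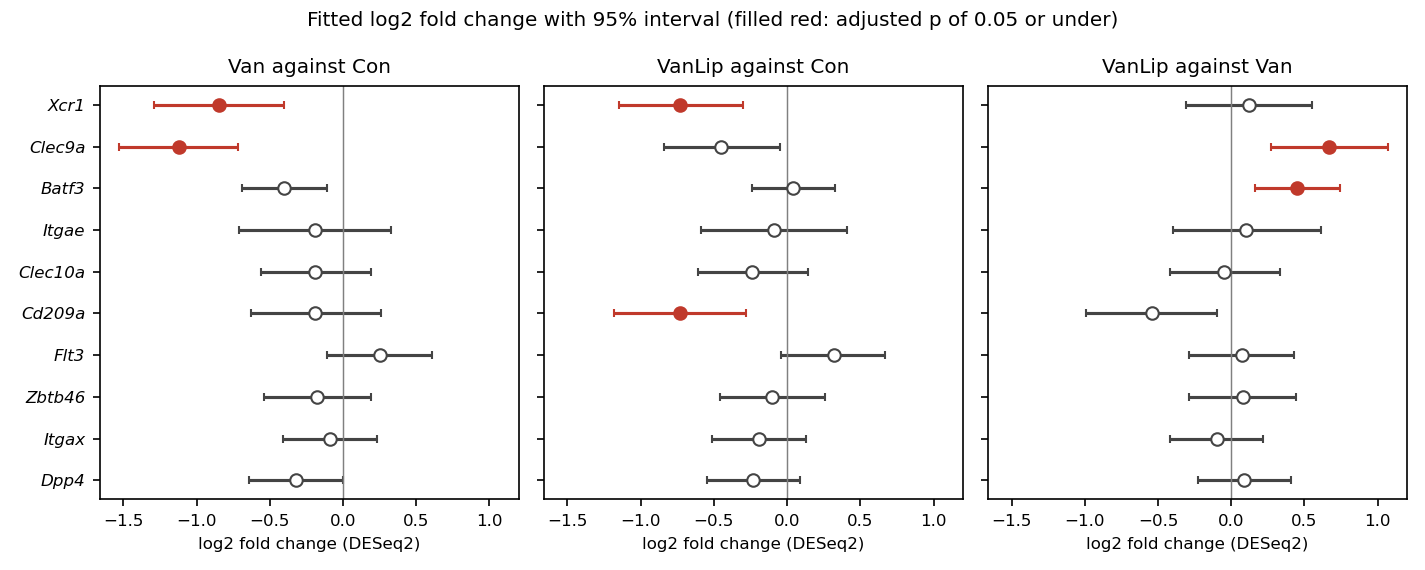
Fitted log2 fold change (x axis) of the 10 genes in each contrast, with 95% intervals from the DESeq2 standard errors. Filled points passed an adjusted p of 0.05 and are, from left to right, Xcr1 and Clec9a, then Xcr1 and Cd209a, then Clec9a and Batf3.

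Clec9a encodes a lectin receptor that binds actin filaments exposed on dead cells and is carried by cDC1, their precursors and, in the mouse, plasmacytoid dendritic cells. It had 923.4, 703.1 and 807.3 normalised counts in the Con libraries, 400.0, 334.2 and 384.1 in Van and 749.8, 440.1 and 591.2 in VanLip. Every Van library lay below every Con and every VanLip library, while Con and VanLip overlapped. The log2 fold change for Van against Con was -1.12 ± 0.21 (SE, DESeq2 adjusted p of 1.55e-05), which is 2.17-fold lower. VanLip against Van gave 0.67 ± 0.20 (SE, DESeq2 adjusted p of 0.0173), 1.59-fold higher. VanLip against Con gave -0.45, with a 95% interval of -0.84 to -0.05 and a DESeq2 adjusted p of 0.188.

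The size of the Clec9a differences depended on the transcript length behind the counts. The length implied by count and FPKM ranged from 2278 to 3292 bases over the libraries, a ratio of 1.45, and was 2278 in Van replicate 1 and 2369 to 2854 in VanLip. No other of the 10 genes varied by more than 1.1. In FPKM, the log2 ratio of group means was -0.92 between Van and Con, 0.75 between VanLip and Van and -0.17 between VanLip and Con. Clec9a (ENSMUSG00000046080; GRCm38 chromosome 6, 129408862 to 129424763, plus strand, protein coding) overlaps Clec1b on the same strand. Of the 50-base words in its transcripts 4.0% also occur in Clec1b, which had 7.92 to 13.7 FPKM, so reads could pass between them. Counts rebuilt with 1 length per gene, an alternative chosen after seeing the data, gave -0.92 and 0.74 and called Clec9a in the same contrasts.

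Xcr1 encodes the receptor for the chemokine XCL1, and among dendritic cells it marks cDC1. It lies on GRCm38 chromosome 9, 123852315 to 123862029, minus strand (ENSMUSG00000060509), and overlaps no other gene. Normalised counts were 228.5, 280.2 and 282.1 in Con, 154.8, 127.1 and 157.3 in Van and 144.5, 192.6 and 141.2 in VanLip. All 6 libraries from vancomycin-treated mice lay below the 3 Con libraries, and Van and VanLip overlapped. Van against Con gave a log2 fold change of -0.85 ± 0.23 (SE, DESeq2 adjusted p of 0.00898), 1.80-fold lower. VanLip against Con gave -0.73 ± 0.22 (SE, DESeq2 adjusted p of 0.0189), 1.65-fold lower. For VanLip against Van the value was 0.12, with a 95% interval of -0.31 to 0.55.

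The bases before the start sites of these cDC1 receptor genes are shown because both genes fell after vancomycin. Each sequence holds the 250 bases upstream of the start given by RefSeq on GRCm38.p6, for Clec9a at chr6:129408612-129408861 on the plus strand and for Xcr1 at chr9:123862030-123862279 on the minus strand, with 35.6% and 38.8% G or C.
Clec9a: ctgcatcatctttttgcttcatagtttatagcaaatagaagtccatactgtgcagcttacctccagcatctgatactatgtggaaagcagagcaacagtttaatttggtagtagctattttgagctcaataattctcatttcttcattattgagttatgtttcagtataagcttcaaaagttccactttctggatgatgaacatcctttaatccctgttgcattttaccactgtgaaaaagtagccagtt
Xcr1: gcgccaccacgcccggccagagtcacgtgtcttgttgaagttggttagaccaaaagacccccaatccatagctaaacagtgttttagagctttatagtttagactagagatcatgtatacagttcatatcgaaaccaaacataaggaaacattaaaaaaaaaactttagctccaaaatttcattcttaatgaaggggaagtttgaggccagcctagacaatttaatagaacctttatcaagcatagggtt

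Batf3 (ENSMUSG00000026630; chromosome 1, 191097847 to 191108945, plus strand) encodes an AP-1 family transcription factor needed for cDC1 development and is also expressed in other leukocytes. It had 1161, 1217 and 1253 normalised counts in Con, 844.6, 1026 and 875.9 in Van and 1419, 1002 and 1323 in VanLip. The Van libraries lay below Con without overlap, whereas VanLip replicate 2 lay within the range of Van. VanLip against Van gave a log2 fold change of 0.45 ± 0.15 (SE, DESeq2 adjusted p of 0.0298), 1.36-fold higher. Van against Con gave -0.40 ± 0.15 (SE), an unadjusted p of 0.00675 and a DESeq2 adjusted p of 0.106. VanLip against Con gave 0.04, with a 95% interval of -0.24 to 0.33.

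Promoters were searched for the AP-1 letters TGANTCA, which read the same on both strands, and, on both strands, for the composite element of ETS and IRF factors, written as GGAA, any 2 bases and GAAA. RefSeq gave a promoter of 250 bases before to 50 after the start for 8 of the 10 genes, without Clec10a and Itgae. The AP-1 letters occurred in 2 of the 8, Zbtb46 and Itgax, against 6.75% of 32851 promoters. The composite element occurred in 0 of the 8, against 2.3%. The AP-1 windows are shown because Batf3 belongs to this factor family, with the match in capitals, on the minus strand at chr2:181424423-181424469 for Zbtb46 and on the plus strand at chr7:128129474-128129520 for Itgax. The matches lie 61 to 55 and 56 to 50 bases before the start that RefSeq gives, which for Zbtb46 lies inside the span of the gene in GENCODE, and they describe letters only.
Zbtb46: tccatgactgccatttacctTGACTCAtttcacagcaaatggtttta
Itgax: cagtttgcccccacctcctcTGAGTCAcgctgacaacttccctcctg

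Itgae (ENSMUSG00000005947; chromosome 11, 73090583 to 73147446, plus strand) encodes the integrin CD103, which binds E-cadherin and is found on part of the cDC1 and on T cells. Normalised counts were 135.9, 188.1 and 245.0 in Con, 158.7, 150.6 and 187.1 in Van and 184.3, 200.4 and 148.7 in VanLip. The groups overlapped in every contrast, and the log2 fold changes ran from -0.19 to 0.10 with DESeq2 adjusted p from 0.862 to 0.921. The 95% interval for Van against Con was -0.71 to 0.33, which includes the value of -0.40 fitted for Batf3 in that contrast.

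Cd209a (ENSMUSG00000031494; chromosome 8, 3743397 to 3748984, minus strand) encodes a mouse relative of the lectin DC-SIGN, known from monocyte-derived dendritic cells, cDC2 and part of the classical monocytes. It had 4762, 3268 and 2693 normalised counts in Con, 3170, 3786 and 2476 in Van and 2693, 1587 and 2194 in VanLip. Con replicate 1 was the highest of the 9 libraries and VanLip replicate 2 the lowest, and Con replicate 3 and VanLip replicate 1 had the same value at this rounding. VanLip against Con gave a log2 fold change of -0.73 ± 0.23 (SE, DESeq2 adjusted p of 0.0292), 1.66-fold lower. VanLip against Van gave -0.54 (unadjusted p of 0.0175, DESeq2 adjusted p of 0.123) and Van against Con -0.19 (DESeq2 adjusted p of 0.834). Without Con replicate 1, the VanLip against Con value was -0.47 with a DESeq2 adjusted p of 0.299.

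Clec10a (ENSMUSG00000000318; chromosome 11, 70156197 to 70170834, plus strand) encodes a lectin for galactose-type sugars that is carried by macrophages, cDC2 and monocyte-derived cells. Normalised counts were 2424, 2279 and 1429 in Con, 1777, 1972 and 1631 in Van and 1958, 1414 and 1842 in VanLip. Con had both the highest and the second lowest of the 9 libraries, and no contrast was called, with log2 fold changes of -0.19, -0.24 and -0.05 and DESeq2 adjusted p from 0.582 to 0.949. Of the 50-base words in its transcripts 9.0% occur in other genes, foremost its neighbour in sequence Mgl2. Mgl2, a gene of cDC2, had 1.79 ± 0.651 FPKM in Con, 1.29 ± 0.209 in Van and 0.690 ± 0.156 in VanLip (each ± SD, n = 3). It was called lower in VanLip than in Con, at -1.42 on the log2 scale (DESeq2 adjusted p of 0.000299).

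Flt3 (ENSMUSG00000042817; chromosome 5, 147330741 to 147400489, minus strand), the receptor for the growth factor of dendritic cell precursors, had 2969, 3107 and 2498 normalised counts in Con, 3210, 3381 and 3594 in Van and 4871, 2992 and 2808 in VanLip. Each Van library lay above each Con library, but the log2 fold change of 0.25, with a 95% interval of -0.11 to 0.61, was not called (DESeq2 adjusted p of 0.608). VanLip against Con gave 0.32 (DESeq2 adjusted p of 0.369). VanLip replicate 1 was the highest of the 9 libraries, while the other two VanLip libraries lay within the range of Con, and without VanLip replicate 1 the value was 0.02.

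Zbtb46 (ENSMUSG00000027583; chromosome 2, 181387762 to 181459426, minus strand) encodes a transcription factor that marks conventional dendritic cells and their committed precursors. It had 545.1, 497.7 and 629.1 normalised counts in Con, 570.5, 506.8 and 399.7 in Van and 432.7, 528.4 and 595.4 in VanLip. All groups overlapped. The log2 fold change between Van and Con was -0.18, with a 95% interval of -0.54 to 0.19. The values were -0.10 between VanLip and Con and 0.08 between VanLip and Van, with DESeq2 adjusted p from 0.787 to 0.900 over the contrasts.

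Itgax (ENSMUSG00000030789; chromosome 7, 128129547 to 128150657, plus strand) had 28830, 27090 and 31440 normalised counts in Con, 29540, 27840 and 24760 in Van and 17900, 30120 and 28600 in VanLip. The groups overlapped, and VanLip replicate 1 lay apart below the other 8 libraries. The log2 fold changes were -0.09, -0.19 and -0.10, with DESeq2 adjusted p from 0.611 to 0.912. Of the 50-base words in its transcripts 8.0% occur in other genes, foremost Itgad, the gene of a related integrin.

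Dpp4 (ENSMUSG00000035000; chromosome 2, 62330073 to 62412231, minus strand) encodes CD26, a peptidase of the cell surface found on cDC1 and T cells among others. It had 7192, 5254 and 6410 normalised counts in Con, 5622, 5393 and 4127 in Van and 4680, 4875 and 6539 in VanLip. The groups overlapped, and Van against Con gave -0.32 with a 95% interval of -0.64 to 0.00 (unadjusted p of 0.0533, DESeq2 adjusted p of 0.346). The other contrasts gave -0.23 and 0.09, with DESeq2 adjusted p of 0.508 and 0.856.

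The libraries of VanLip differed among themselves across these genes. By normalised count, VanLip replicate 1 was the highest of all 9 libraries for Flt3 and Batf3 and the lowest for Itgax. VanLip replicate 2 was the lowest for Clec10a and Cd209a. The same replicate 1 had the highest summed level of 10 classical monocyte markers, 4116 FPKM against 2309 to 3275 over Con and Van, and the lowest of 11 plasmacytoid markers, 126.9 FPKM. The part of these markers in the member values was not tested. Without VanLip replicate 1, VanLip against Van gave 0.47 for Clec9a and 0.35 for Batf3, and neither was called (DESeq2 adjusted p of 0.134 and 0.168). VanLip against Con then gave -0.65 for Clec9a, which was called (DESeq2 adjusted p of 0.0209).

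In bulk libraries fewer cells of a type and less RNA per cell cannot be told apart, so marker genes of other cells were read beside the dendritic cell genes. The 10 genes summed to 149 to 169 FPKM in Con, 127 to 153 in Van and 128 to 149 in VanLip, and most of each sum was Itgax and Cd209a. Plasmacytoid markers (11 genes) summed to 161 to 170 FPKM in Con, 160 to 165 in Van and 127 to 179 in VanLip. In any contrast only Siglech of these, their defining surface lectin, was called, at -0.89 after vancomycin (Van against Con, DESeq2 adjusted p of 0.0475) and at 0.85 with the lipid (VanLip against Van, DESeq2 adjusted p of 0.0315). Siglech had 1.42 ± 0.115 FPKM in Con, 0.779 ± 0.284 in Van and 1.32 ± 0.342 in VanLip (each ± SD, n = 3), so most of the list sum lay in other genes. Of the 11, 8 were fitted below 0 and 3 above after vancomycin, at a median of -0.19. Between VanLip and Van 7 were above 0 and 4 below, at a median of 0.08. The edgeR test called 0 of the 11 in each of these contrasts, with 4 at an unadjusted p under 0.05 after vancomycin and 2 between VanLip and Van, and the 3 limma fits on FPKM called 0.

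B cell markers (10 genes) summed to 11.9 to 15.2 FPKM in Con, 9.64 to 11.5 in Van and 11.3 to 14.2 in VanLip. For Van against Con all 10 were fitted below 0 and 2, Ighd and Blk, were called lower at -1.49 and -1.36 (DESeq2 adjusted p of 0.00343 and 0.0181). For VanLip against Con 8 of 9 with an adjusted p were fitted below 0 at a median of -0.68, and DESeq2 called 0, with 3 at an unadjusted p under 0.05. T and NK cell markers (10 genes) summed to 5.34 to 5.61 FPKM in Con, 3.01 to 5.05 in Van and 2.74 to 4.97 in VanLip, with 7 of 10 fitted below 0 after vancomycin at a median of -0.60 and 7 of 9 between VanLip and Con at a median of -0.70. The cytokine receptor gene Il7r, was called lower for VanLip against Con at -0.70 (DESeq2 adjusted p of 0.0106). Neutrophil markers (10 genes) summed to 18.8 to 25.5 FPKM in Con, 13.7 to 33.7 in Van and 19.5 to 36.8 in VanLip. Of the 9 with an adjusted p, 7 were fitted below 0 after vancomycin at a median of -0.37 and 7 between VanLip and Con at a median of -0.78. Retnlg was called lower in the first at -2.60 and Ngp in the second at -1.94 (DESeq2 adjusted p of 0.0225 and 0.0388). Both had low mean normalised counts, Retnlg 56.4 in Con and 9.38 in Van, and Ngp 125 in Con and 32.4 in VanLip. The calls in these 3 lists were made by DESeq2 alone, since edgeR called 0 in each contrast. An unadjusted edgeR p under 0.05 was reached by 3 B cell and 2 neutrophil markers after vancomycin, and between VanLip and Con by 2 B cell markers, 1 T and NK cell marker and 1 neutrophil marker.

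Classical monocyte markers (10 genes) summed to 2611 to 2905 FPKM in Con, 2309 to 3275 in Van and 3078 to 4116 in VanLip, so that every VanLip library lay above every Con library. All 10 were fitted above 0 between VanLip and Con at a median of 0.37, and 9 between VanLip and Van at a median of 0.34, against a median of -0.05 after vancomycin. The chemokine receptor gene Ccr2 had 165 ± 7.56 FPKM in Con, 87.2 ± 14.8 in Van and 201 ± 51.0 in VanLip (each ± SD, n = 3). It was called lower after vancomycin at -0.83 and higher between VanLip and Van at 1.04 (DESeq2 adjusted p of 0.00048 and 7.78e-07). Vcan was called higher after vancomycin at 1.54, Hp, the haptoglobin gene, higher in VanLip against Con at 0.63, and Ly6c2 higher in VanLip against Van at 0.39 (DESeq2 adjusted p of 0.0123, 0.00313 and 0.0276). The edgeR test called 1 after vancomycin, 1 between VanLip and Van and 0 between VanLip and Con, the last with 3 at an unadjusted p under 0.05.

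Nonclassical markers (12 genes) summed to 3212 to 3629 FPKM in Con, 3094 to 4070 in Van and 3092 to 4119 in VanLip. For Van against Con 7 of the 12 were fitted above 0 at a median of 0.08. Between VanLip and Van 8 were above 0 at a median of 0.11, and between VanLip and Con 10 at 0.13. Ear2 was called lower after vancomycin at -0.35 and higher between VanLip and Van at 0.48 (DESeq2 adjusted p of 0.000689 and 7.87e-08). The chemokine receptor gene Cx3cr1 and Eno3 were also called higher between VanLip and Van, at 0.43 and 0.60, and Fabp4 was called higher between VanLip and Con at 0.46 (DESeq2 adjusted p of 0.00278, 0.026 and 0.048). The edgeR test made 2 calls between VanLip and Van and 0 in the other contrasts, with 4 at an unadjusted p under 0.05 after vancomycin and 3 between VanLip and Con. Red pulp macrophage markers (10 genes) summed to 1135 to 1411 FPKM in Con, 1386 to 1797 in Van and 1077 to 1504 in VanLip, and C1qa had 206 to 340 FPKM. After vancomycin 9 of 10 were fitted above 0 at a median of 0.25, and between VanLip and Van 9 of 10 were fitted below 0 at a median of -0.24. Vcam1 was called in both, at 0.46 and -0.50. The edgeR test called 0 of this list after vancomycin, with 4 at an unadjusted p under 0.05, and 1 between VanLip and Van. Without VanLip replicate 1, DESeq2 no longer called Siglech between VanLip and Van, or Il7r and Ngp between VanLip and Con. The classical monocyte medians were then 0.13 against Van and 0.09 against Con. The nonclassical medians were 0.31 against Van, with 4 genes called, and 0.27 against Con, with 2 called. Against Con the T and NK cell median was then -0.23 over 7 genes, the neutrophil median -0.34 over 8 and the B cell median -0.47 over 9. The part of these cells in the levels of Clec9a, Xcr1, Batf3 and Cd209a was not tested.

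**Figure D3:**
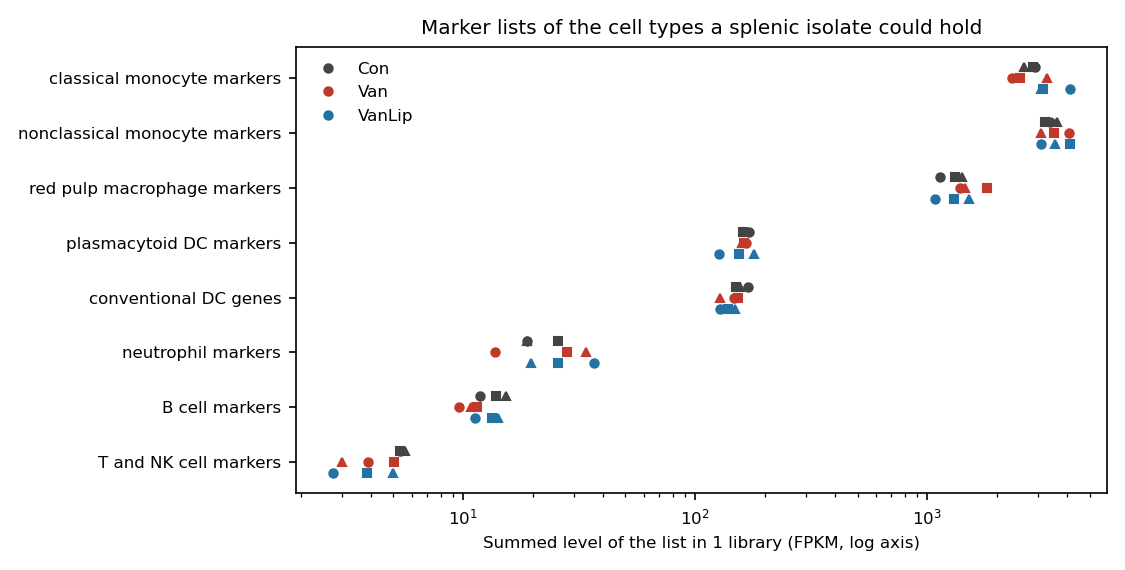
Summed FPKM of each marker list in each library (log axis), coloured by group, with symbols for replicates. The dendritic cell genes sum to 127 to 169 FPKM, below the monocyte lists, which lie at 2309 FPKM or more, and above the B cell and T and NK cell lists, which lie at 15.2 FPKM or under.

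Further genes of conventional dendritic cells were read from the same fit. Of 14 regulators of the lineage, DESeq2 called 4 for Van against Con. The transcription factor genes Irf4, Bcl11a and Rbpj, the last of the NOTCH pathway, were lower at -0.57, -0.38 and -0.45, and Id2, an inhibitor of E proteins, was higher at 0.35. For VanLip against Van, Irf4 and Irf8 were called higher at 0.65 and 0.42 and Id2 lower at -0.36, and VanLip against Con had 0 calls by DESeq2 or edgeR, with 3 genes at an unadjusted p under 0.05. The list medians were -0.04 after vancomycin, 0.10 for VanLip against Van and 0.05 for VanLip against Con. With edgeR 0 of the 4 Van calls held, with 6 genes at an unadjusted p under 0.05, and 2 genes were called for VanLip against Van. These factors are also expressed by monocytes, and the list summed to 1022 to 1249 FPKM.

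Of 15 further cDC1 genes with an adjusted p, DESeq2 called 0 for Van against Con, with 3 at an unadjusted p under 0.05, 12 fitted below 0 and a median of -0.22. The edgeR test also called 0. For VanLip against Con, Tlr11, a receptor for protozoan profilin, and Wdfy4, a gene of cross-presentation, were lower at -0.91 and -0.18, and Cd24a, which is widely expressed, was higher at 0.64. Cd24a was also the 1 gene of the list called for VanLip against Van, at 0.85. Of 11 cDC2 genes, Clec12a and Dtx1 were called lower after vancomycin, at -0.29 and -0.75, and Cd1d1 was called higher, at 0.28, while edgeR called 0 of them, with 4 at an unadjusted p under 0.05. VanLip against Van called Clec12a higher and Cd1d1 lower, at 0.34 and -0.41. The cDC1 list summed to 340 to 376 FPKM over the libraries and the cDC2 list to 396 to 466. In Con the mean normalised count was 31710 for Wdfy4 and 18030 for Clec12a, against 811 for Clec9a. Which cells of the isolate these levels come from was not tested.

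Of 23 genes of a core signature shared by conventional dendritic cells, 6 were called for Van against Con, 3 in each direction, with a median of -0.24, and edgeR called 1. They included Kmo and Haao, enzymes of tryptophan breakdown, lower at -0.66 and -0.39, Ap1s3, of a vesicle coat adaptor, lower at -0.38, and Amica1, an adhesion molecule gene, higher at 0.99. For VanLip against Con DESeq2 called 5, 4 of them lower, and edgeR 0, with 7 at an unadjusted p under 0.05. The lower genes included Slamf7 at -0.73, Runx3 at -0.52, Gpr132 at -0.45 and Ap1s3 at -0.42. For VanLip against Van 5 were called by DESeq2 and 4 by edgeR. By DESeq2, Haao was higher at 0.49, and Amica1, Runx3 and Pvrl1, a nectin gene, were lower at -1.13, -0.52 and -0.65. The core list summed to 221 to 308 FPKM over the libraries, and the cells behind its levels were not tested either. Without VanLip replicate 1, DESeq2 called 2 of the regulators between VanLip and Con, Bcl6 and Rbpj, and 5 between VanLip and Van, and of the cDC2 genes 2 and 4, with Ltb added in each. Of the cDC1 genes Wdfy4 was then not called. Bcl6 and Ltb were chosen after their values were seen.

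**Figure D4:**
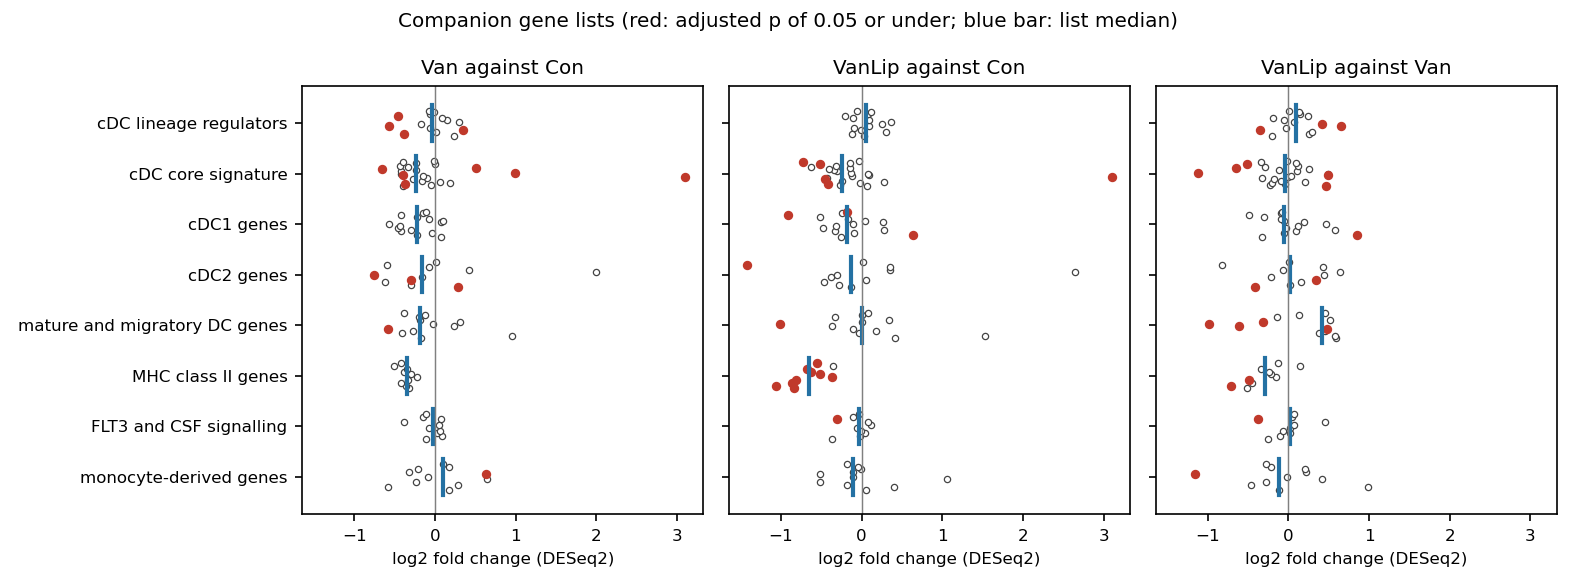
Fitted log2 fold change (x axis) of each gene in 8 companion lists, by contrast, with called genes in red and list medians as blue bars. The medians of the 4 conventional dendritic cell lists lie between -0.25 and 0.10, and the MHC class II list, described among the other observations, lies below 0 for VanLip against Con at a median of -0.65.

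The calls differed in how far they held under other choices. Clec9a for Van against Con was called in each of the 9 fits that left out 1 library, with log2 fold changes of -1.21 to -1.02, and under edgeR, but not in the 3 limma fits on FPKM, at -0.87 to -0.59. Xcr1 for Van against Con was not called without Con replicate 2, Con replicate 3 or Van replicate 2, where the values were -0.80, -0.80 and -0.76, nor under edgeR at -0.85 (edgeR adjusted p of 0.108). In limma on log2(FPKM + 1) it was -0.25, and with a pseudocount of 0.1 it was -0.65, both without a call (limma adjusted p of 0.148 and 0.27). For VanLip against Con the same limma fits gave Xcr1 -0.21 and -0.54, and gave Cd209a -0.69 and -0.72, again without a call. Xcr1 and Cd209a for VanLip against Con each lost their call under edgeR, both at -0.70. Xcr1 also lost it with counts converted to fragments, at -0.73 (DESeq2 adjusted p of 0.0526), and in 4 of the 9 fits without 1 library, those without Con replicate 2, Con replicate 3, VanLip replicate 1 and VanLip replicate 3, at -0.68 to -0.65. Cd209a was called in 3 of the 9, those without Con replicate 3, Van replicate 2 and Van replicate 3. Clec9a for VanLip against Van was called in 7 of the 9, without a call when Van replicate 2 or VanLip replicate 1 was left out, at 0.60 and 0.47. Batf3 was called in 5, without a call when Van replicate 1, Van replicate 3, VanLip replicate 1 or VanLip replicate 3 was left out, at 0.35 to 0.42. Under edgeR neither was called (edgeR adjusted p of 0.0691 and 0.0851). The direction of these calls held in every alternative.

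**Figure D5:**
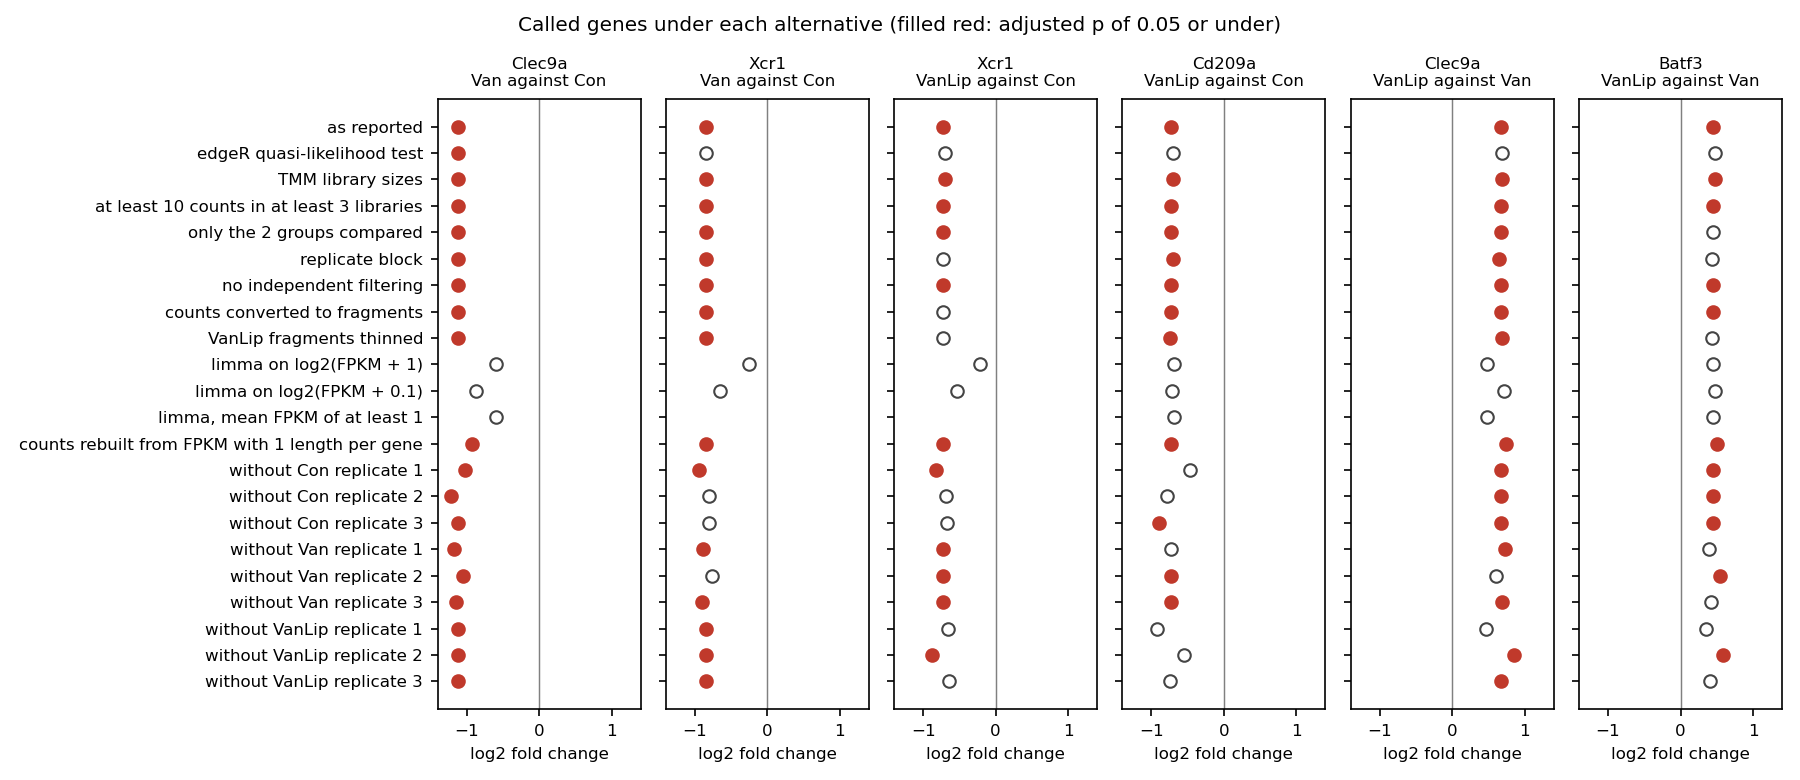
Log2 fold change (x axis) of the called genes in the fit as reported and under each alternative (rows), filled where the adjusted p was 0.05 or under. All values keep their side of 0, and Clec9a for Van against Con has the most filled points, 18 of 21 alternatives.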

How the data were processed

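RNA from splenic monocytes was sequenced in 9 libraries. The authors aligned reads to GRCm38 with HISAT2 2.2.1 and SAMtools 1.9 and computed FPKM with StringTie 2.1.3, and these FPKM values were deposited. The authors obtained the deposited expected counts, which are not normalized, with tximport 1.26.1. The annotation release is not given in the sources used here. Of the detected identifiers 99.0% matched GENCODE M21 on GRCm38, which supplied coordinates. Whether counting used strand is not given in the sources used here, although the library kit keeps it.

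Expected counts were rounded and fitted with DESeq2 1.42.0 in R 4.3.3, the Wald test, all 9 libraries in 1 fit with group as the only term, on genes with a count above 0. Genes were called at a Benjamini-Hochberg adjusted p of 0.05 or under, two-sided. Normalised counts are counts divided by DESeq2 size factors. The scripts were tested on simulated data. Alternatives were edgeR 4.0.16, TMM sizes, a filter of 10 counts in 3 libraries, only the 2 groups compared, a replicate block, no independent filtering, counts converted to fragments, thinned VanLip fragments, limma 3.58.1 on quantile-normalized log2(FPKM + 1), with 0.1 as pseudocount or only genes of mean FPKM 1 or more, each library left out and, chosen after seeing the data, counts rebuilt from FPKM with 1 length per gene and, for the other gene lists, a DESeq2 fit without VanLip replicate 1.

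The 10 genes were all named. From each other list, up to 4 called genes per contrast with the lowest adjusted p and, in the higher of the groups, a mean normalised count of 50 or more were named, with 9 defining markers and, chosen after their values were seen, Clec1b, Bcl6, Ltb, Cacnb3, Socs2 and Cd14. Mgl2 was set beside Clec10a. The members and lists were chosen with earlier results of these data known.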

Additional observations from a re-analysis of the deposited data

How the results depend on the processing

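Against 2 of the 10 genes called in each contrast, edgeR called 1 for Van against Con and 0 for each VanLip contrast, and limma on FPKM called 0 in all 3 contrasts in its 3 settings. At an unadjusted p under 0.05 edgeR had 3 genes in each contrast and limma 1 to 3. Over all genes edgeR had 2763, 3338 and 3915 of 25441. For Van against Con the fit of only the 2 groups added Batf3, giving 3. For VanLip against Con 1 gene, Cd209a, was called with counts converted to fragments or with thinned VanLip fragments. For VanLip against Van 1 gene, Clec9a, was called with only the 2 groups or with thinned fragments. In limma limited to genes of mean FPKM 1 or more, Itgae and Xcr1 were left out and have no value. The cause was not tested. Counts rebuilt with 1 length per gene, chosen after seeing the data, called 2 in each contrast. Leaving out 1 library gave 1 to 3 genes for Van against Con. The VanLip against Con count ranged from 0 to 2, with 0 when Con replicate 2 or VanLip replicate 3 was left out. That for VanLip against Van ranged from 0 to 2, with 0 when VanLip replicate 1 was left out. Without VanLip replicate 2 Batf3 was gained for Van against Con.

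With a replicate block the counts were 2, 1 (Cd209a) and 1 (Clec9a). The numbers are only names, as same-numbered libraries' deviations correlated between -0.06 and 0.12.

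Over all genes edgeR called 189, 289 and 727 and limma on log2(FPKM + 1) called 36, 193 and 613, against 803, 1093 and 1749. With counts converted to fragments DESeq2 called 620, 835 and 1426. With thinned fragments VanLip against Con had 718. Leaving out 1 library gave 406 to 923, 606 to 1272 and 1123 to 1651. With TMM sizes the VanLip contrasts had 666 higher and 497 lower against 485 and 608, and 1003 higher and 793 lower against 810 and 939.

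Direction reversed only without 1 library, where fewer libraries enter the fit, and only in genes not called. For Van against Con the log2 fold changes ranged from -0.35 to 0.08 for Cd209a and from -0.38 to 0.03 for Itgae. For VanLip against Con they ranged from -0.28 to 0.13 for Itgae (0.02 without VanLip replicate 3), from -0.21 to 0.01 for Zbtb46, from -0.32 to 0.01 for Itgax and from -0.06 to 0.18 for Batf3. For VanLip against Van they ranged from -0.14 to 0.08 for Clec10a (0.03 without Van replicate 2), from -0.05 to 0.20 for Zbtb46 (-0.04 without VanLip replicate 3), from -0.08 to 0.18 for Dpp4 (-0.04 without Van replicate 3), from -0.23 to 0.21 for Flt3, from -0.24 to 0.10 for Itgax and from -0.04 to 0.20 for Xcr1.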

Other observations

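Genes of antigen presentation by MHC class II, which dendritic cells and monocytes share, had lower levels in VanLip. Over all genes DESeq2 called 3.47% lower for VanLip against Con. DESeq2 called 9 of 10 lower for VanLip against Con, with a list median of -0.65, among them the class II transactivator Ciita at -1.06 (DESeq2 adjusted p of 1.04e-05) and the class II chain genes H2-Aa at -0.87 and H2-Ab1 at -0.82, with H2-DMb1, of the peptide loading chaperone, at -0.51. The edgeR test called 3, and limma called 0 on log2(FPKM + 1), 0 with a pseudocount of 0.1 and 2 among genes of mean FPKM 1 or more. The list summed to 3837 to 5111 FPKM in Con, 3144 to 4051 in Van and 1732, 2874 and 3075 in the VanLip libraries, so that replicate 1 stood apart. Without it DESeq2 called 7 of 10 between VanLip and Con, at a median of -0.50, and 0 between VanLip and Van, with 2 at an unadjusted p under 0.05. For Van against Con all 10 were fitted below 0 at a median of -0.35 and DESeq2 and edgeR called 0, with 7 at an unadjusted p under 0.05 by DESeq2. For VanLip against Van, Ciita and H2-Ab1 were called lower by DESeq2, at -0.71 and -0.49, while edgeR called 0, with 4 at an unadjusted p under 0.05, and the 3 limma fits called 0.

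Of 12 genes of mature dendritic cells, the costimulatory receptor gene Cd40 was lower after vancomycin (Van against Con) at -0.58 and then higher in VanLip against Van at 0.48, and Cd83 was lower in VanLip than in Con and Van, at -1.01 and -0.99. The costimulatory ligand genes Cd86 and Cd80 were lower in VanLip than in Van, at -0.31 and -0.61. The list as a whole went the other way in that contrast, with 8 of 12 fitted above 0 at a median of 0.42. Of the 12, edgeR called 0 for Van against Con, with 3 at an unadjusted p under 0.05. It called 0 for VanLip against Con, with 1 at an unadjusted p under 0.05, and 1 between VanLip and Van. Without VanLip replicate 1, DESeq2 called 0 between VanLip and Con, with 3 at an unadjusted p under 0.05. Between VanLip and Van it called neither Cd83 nor Cd86. Cd40 and Cd80 were still called there, with Cacnb3 and Socs2 added, 3 of the 4 higher and 1 lower. In that fit 8 of 11 were above 0 at a median of 0.54. Of 10 genes of FLT3 and colony stimulating factor signalling 1 was called, Stat3, a transcription factor gene, lower in VanLip than in Con and Van at -0.30 and -0.38. By edgeR the list had 1 call between VanLip and Van and 0 between VanLip and Con, with 1 at an unadjusted p under 0.05. Of 11 genes of monocyte-derived dendritic cells and macrophages with an adjusted p, 1 was called, Clec4e, a lectin for microbial glycolipids, which rose after vancomycin by 0.64 and had -1.16 between VanLip and Van. In that list edgeR and the 3 limma fits called 0 after vancomycin, each with 3 at an unadjusted p under 0.05, and each called 1 between VanLip and Van. Without VanLip replicate 1, DESeq2 called Clec4e and Cd14 lower in VanLip against both other groups, and of the signalling genes Stat3 against Con and Stat3 and Socs2 against Van. Cacnb3, Socs2 and Cd14 were chosen after their values were seen.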
